A study of Mus musculus with 22 samples.

Results

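The genes of the oligodendrocyte lineage were examined in CD11b+ cells from neonatal mouse brain. They were 9 listed genes, each looked up by its Ensembl identifier in the count tables of both batches, of 56691 genes counted in all. Of these, 3 mark oligodendrocyte precursors (Pdgfra, Cspg4 and Olig1) and 6 code for proteins of myelin or of the myelinating cell (Cnp, Mbp, Mobp, Cldn11, Mag and Mog). All 9 passed the filter on low counts in every comparison.

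Oligodendrocytes are the glia that wrap axons of the central nervous system in myelin. They arise from proliferating precursors, which carry the PDGF receptor and the NG2 proteoglycan, and which leave the cell cycle and switch on myelin genes as they mature. In the mouse brain myelin forms mainly in the postnatal weeks, and the immature cells of this lineage are known to be sensitive to perinatal lack of oxygen and inflammation.

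The animals were CF-1 wildtype pups, and cells carrying CD11b, an integrin chain found on microglia and on other cells of the myeloid lineage, were enriched on magnetic beads from dissociated brains. HIE denotes a model of hypoxic-ischemic encephalopathy with maternal lipopolysaccharide late in gestation followed by hypoxia of the pups in the first postnatal week, and Control its counterpart of saline and normoxia. The P14 Hypoxia group is named in the labels only, so that what its dams received is not given in the sources used here. There were 4 animals from 2 litters in each of 5 groups: early HIE (litters N5 and N8), early Control (P6H63 and P6H55), P14 HIE (P4H1 and P6H12), P14 Control (P4H4 and P6H8) and P14 Hypoxia (P6H7 and P6H9). The early HIE animals were labelled P7 and were all males, and the early controls were labelled P8, P9 (P6H63), P10 and P11 (P6H55), while the study's methods give P7 for this time point. The other 4 groups had 2 males and 2 females each. Values are listed with the animals of P6H63 before those of P6H55, N5 before N8 and P4H1 before P6H12, in the order P4H4, P6H8, P4H4, P6H8 for the P14 controls and P6H7, P6H9, P6H9, P6H7 for Hypoxia. Every litter held 1 treatment only, and all P14 animals were in 1 batch of the deposited data and all early animals in the other.

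Total counts were 70191578 to 83469094 per early animal and 29751544 to 76166804 per P14 animal, where 2 HIE animals had 2 libraries each. A count of 3 corresponds to at most 0.101 CPM (counts scaled to library size), and every member had at least 78 counts in every animal. The summed CPM of 11 microglia markers was 13849 to 31729 in 18 of 20 animals and 1399 to 2139 in the P6H63 controls. These libraries therefore stood apart before any comparison. Tests of the members that rest on them are given with and without them. Tests of the other lists, and the order of the members by level, include them throughout. The 6 myelin genes together summed to 217 to 2854 CPM, below the microglia markers in every animal. In such enriched bulk samples, fewer oligodendrocyte lineage cells and less RNA per cell cannot be told apart.

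The 250 bases before the start of the canonical transcript were read for the 3 myelin genes with the largest difference between the ages in Control animals (Mog, Mobp and Mag), since they moved together, and for Cldn11, which differed from them. For Mobp and Mag this start lies inside the annotated span of the gene, so that their windows do not precede the whole gene. The windows are chr17:37334351-37334600 on the reverse strand, chr9:119978493-119978742 on the forward strand, chr7:30613734-30613983 on the reverse strand and chr3:31203650-31203899 on the forward strand, all in GRCm39. Capitals mark matches on either strand to ACAAAG or ACAATG (cores bound by SOX proteins such as SOX10), CAGCTG (an E-box of the kind OLIG proteins bind) and CTGGCAC or CTGGTAC (the core of MYRF, a regulator of myelin genes).
Mog: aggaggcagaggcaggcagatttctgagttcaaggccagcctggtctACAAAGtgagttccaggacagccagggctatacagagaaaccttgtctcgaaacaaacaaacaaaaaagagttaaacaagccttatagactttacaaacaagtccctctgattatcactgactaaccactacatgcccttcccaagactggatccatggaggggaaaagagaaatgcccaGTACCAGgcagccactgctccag
Mobp: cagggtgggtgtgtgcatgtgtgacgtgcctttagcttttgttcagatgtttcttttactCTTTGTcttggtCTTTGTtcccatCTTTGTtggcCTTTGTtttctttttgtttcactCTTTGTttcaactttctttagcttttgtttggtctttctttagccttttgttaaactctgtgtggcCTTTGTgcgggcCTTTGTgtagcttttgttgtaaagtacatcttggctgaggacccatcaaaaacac
Mag: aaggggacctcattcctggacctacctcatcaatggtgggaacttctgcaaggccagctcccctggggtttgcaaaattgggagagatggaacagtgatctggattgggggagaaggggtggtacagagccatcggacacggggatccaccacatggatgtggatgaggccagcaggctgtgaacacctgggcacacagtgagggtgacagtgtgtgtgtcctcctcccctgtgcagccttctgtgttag
Cldn11: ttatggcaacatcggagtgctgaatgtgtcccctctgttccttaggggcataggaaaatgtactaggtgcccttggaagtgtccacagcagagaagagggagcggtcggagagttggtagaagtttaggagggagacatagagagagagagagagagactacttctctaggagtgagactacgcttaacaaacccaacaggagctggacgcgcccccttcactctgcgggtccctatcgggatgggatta

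The Mobp window held 7 matches to the SOX cores, 190 to 55 bases before the start. That of Mog held 1 SOX match at 203 bases and 1 MYRF match at 23 bases before the start, while no match of any kind was present in the Mag and Cldn11 windows. Among 21770 protein-coding promoters of the same length, 23.7% held a SOX core, 11.9% the E-box and 5.8% a MYRF core. The matches are letters only, and binding was not measured.

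On GRCm39 the precursor genes lie at chr5:75311994-75358876 (Pdgfra), chr9:56772317-56807187 (Cspg4) and chr16:91066660-91068821 (Olig1), all on the forward strand. The myelin genes lie at chr11:100465730-100482936 (Cnp), chr18:82493207-82603763 (Mbp), chr9:119973770-120011273 (Mobp) and chr3:31203900-31218495 (Cldn11) on the forward strand, and at chr7:30598464-30614474 (Mag) and chr17:37321521-37334350 (Mog) on the reverse strand. The annotated span of Cnp overlaps that of Dnajc7 and the span of Mog that of Zfp57, both protein-coding genes on the opposite strand. The library kit marks strand, but whether the counting used it is not given in the sources used here.

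Between the early age and P14 the myelin genes rose in both treatment arms, and the precursor genes did not pass the test. In Control animals 5 of the 6 myelin genes rose, with 28.4-fold higher mean CPM for Mog, 23.5-fold for Mobp, 14.6-fold for Mag, 7.15-fold for Mbp and 3.06-fold for Cnp. In HIE animals all 6 rose, by 12.98-fold, 8.41-fold, 7.17-fold, 3.10-fold and 2.34-fold in the same order and by 3.40-fold for Cldn11. The test was edgeR's quasi-likelihood test on all genes with an adjusted p under 0.05. It called 48% of all genes tested in Control and 35.7% in HIE animals. Age and batch cannot be told apart in this comparison. Markers of other cells changed too. In Control 7 of 11 microglia markers rose, all 7 fibroblast markers fell, and of 9 mural cell markers 7 fell and 1 (Myh11) rose. In HIE 1 microglia marker rose, no fibroblast marker was called, and of the mural cell markers 3 rose (Rgs5, Myh11 and Acta2) and 1 (Anpep) fell. Of 9 neuron markers 4 rose in Control and 3 in HIE, and none fell. Of 9 astrocyte markers 2 rose and 4 fell in Control, and 2 rose and 1 fell in HIE. Of 8 endothelial markers 1 rose and 6 fell in Control, and 2 rose in HIE. Of 6 choroid plexus markers 1 rose and 1 fell in Control, and 3 rose in HIE. Of 7 border macrophage markers 1 rose in Control and 1 fell in HIE. The part of these cells in the member values was not tested.

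**Figure D1:**
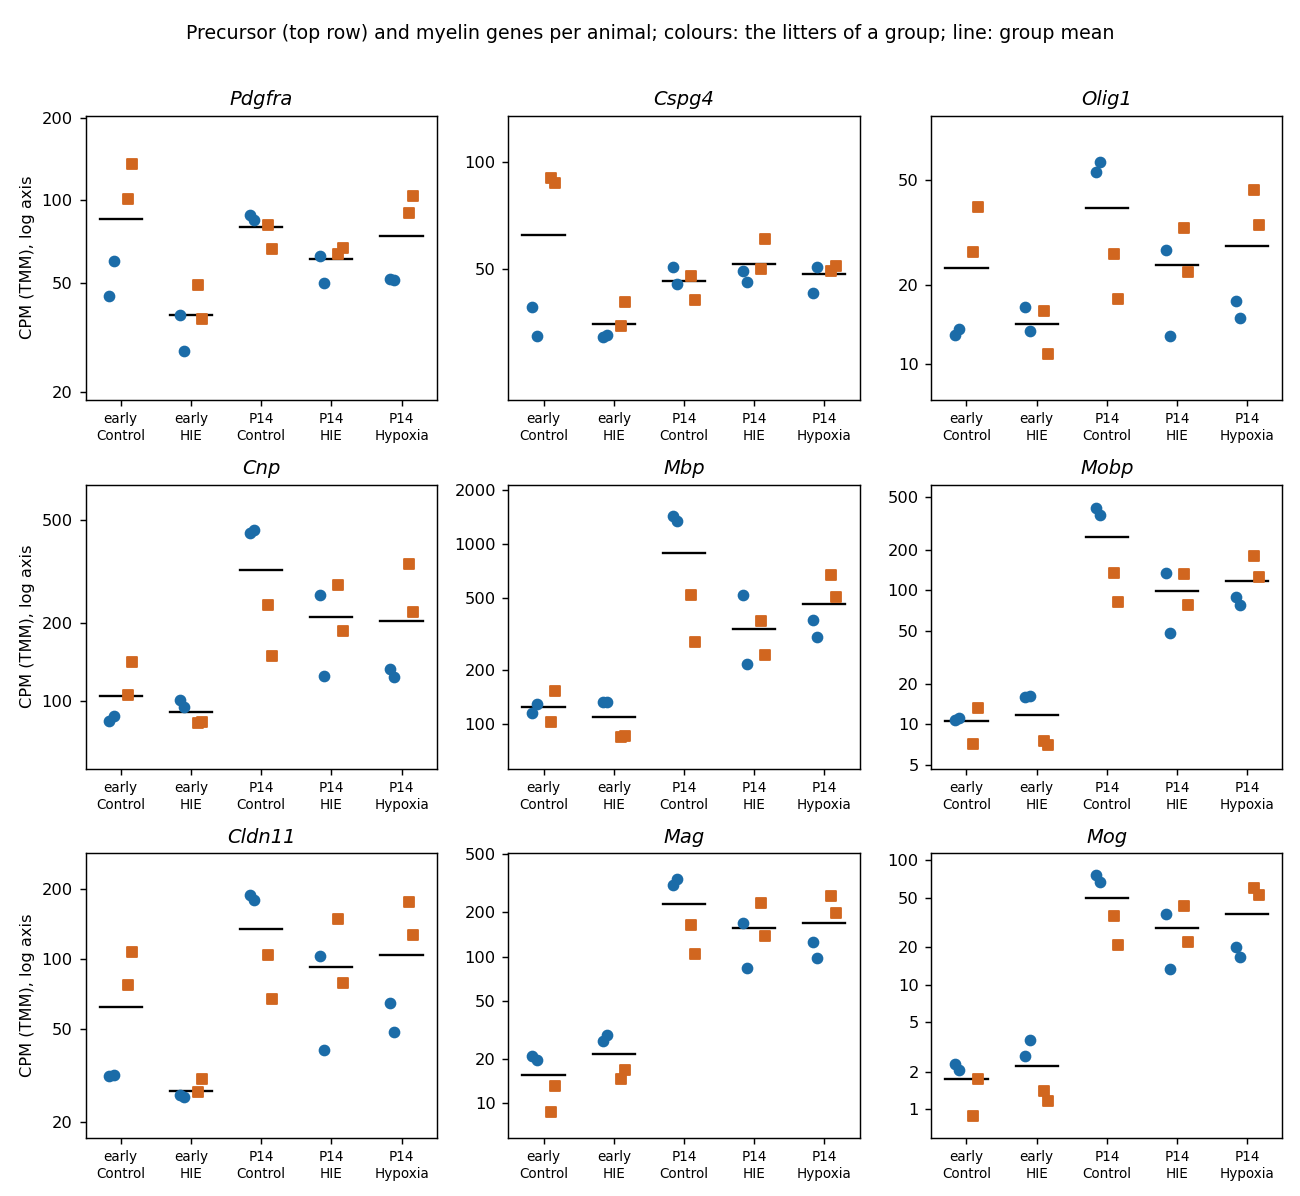
CPM per animal (log axis) of the 9 genes in the 5 groups, with the precursor genes in the top row. Circles and squares are the litters of a group (circles P6H55, N5, P4H4, P4H1 and P6H7, squares P6H63, N8, P6H8, P6H12 and P6H9, from left to right) and the line is the group mean. Every P14 animal lies above every early animal for Cnp, Mbp, Mobp, Mag and Mog within both Control and HIE.

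Mog, a surface glycoprotein of the outermost myelin layer that appears late in maturation, was the lowest member at the early age. Its 4 early Control values were 0.887, 1.76, 2.30 and 2.08 CPM, and its 4 P14 Control values were 75.7, 35.8, 67.3 and 20.7 CPM. In HIE animals it was at 2.699, 3.60, 1.41 and 1.17 CPM early and at 36.7, 13.4, 43.0 and 22.1 CPM at P14. No animal of one age reached the range of the other. The log2 fold change was 4.83 ± 0.58 (SE) in Control (edgeR, adjusted p = 4.6e-06) and 3.69 ± 0.55 in HIE (adjusted p = 5.27e-05).

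Mobp, which codes for a small basic protein of compact myelin, had 7.18, 13.3, 10.8 and 11.1 CPM in the early controls and 411, 135, 368 and 81.8 CPM in the P14 controls. The early HIE animals had 16.1, 16.2, 7.48 and 7.00 CPM and the P14 HIE animals 136, 47.8, 132 and 77.7 CPM. Within each age the litters were as much as several-fold apart, yet the ages did not overlap. The log2 fold change was 4.55 ± 0.53 in Control (edgeR, adjusted p = 3.09e-06) and 3.07 ± 0.49 in HIE (adjusted p = 0.00011).

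Mag is a lectin of the Siglec family on the myelin face next to the axon. It stood at 8.72, 13.04, 21.0 and 19.7 CPM in the early controls and at 306, 165, 337 and 105 CPM in the P14 controls. Early HIE values were 26.7, 29.0, 14.5 and 16.9 CPM, against 170, 83.1, 233 and 139 CPM at P14. Again the ages were fully apart, with a log2 fold change of 3.87 ± 0.45 in Control (edgeR, adjusted p = 2.89e-06) and 2.84 ± 0.43 in HIE (adjusted p = 5.58e-05).

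Mbp, the basic protein that holds the inner faces of the membrane together in compact myelin, was at 102, 153, 116 and 128 CPM in the early controls and at 1426, 524, 1338 and 286 CPM in the P14 controls. In HIE animals it went from 133, 133, 84.7 and 85.7 CPM to 524, 216, 372 and 243 CPM. The log2 fold change was 2.84 ± 0.43 in Control (edgeR, adjusted p = 5.39e-05) and 1.63 ± 0.41 in HIE (adjusted p = 0.0047). Cnp, an enzyme of the cytoplasmic channels of myelin that is made already by immature oligodendrocytes, rose least of the 5, from a mean of 105 ± 26.5 (SD, n = 4) to 321 ± 154 CPM in Control. Its log2 fold change was 1.61 ± 0.36 in Control (edgeR, adjusted p = 0.00144) and 1.23 ± 0.35 in HIE (adjusted p = 0.0113).

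Cldn11, the tight-junction protein that seals the layers of central myelin, did not pass in Control animals. There it was at 77.6, 107, 31.3 and 31.8 CPM early and at 189, 104, 179 and 67.2 CPM at P14, so that the early P6H63 animals reached into the P14 range. The log2 fold change was 1.12 ± 0.46 (edgeR, adjusted p = 0.0537). In HIE animals it was at 25.9, 25.6, 26.9 and 30.5 CPM early and at 103, 40.5, 149 and 78.5 CPM at P14, without overlap and with a log2 fold change of 1.76 ± 0.47 (adjusted p = 0.00715). Counted over the members, every P14 animal was above every early animal for 5 of 9 in Control, where 17.1% of all genes were so ordered, and for 8 of 9 in HIE, where 19.8% were. The exception in HIE was Olig1.

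None of the precursor genes passed the test between the ages. Pdgfra, the receptor tyrosine kinase through which PDGF keeps precursors dividing, was at 101, 135, 44.8 and 59.9 CPM in early controls and at 88.2, 81.0, 84.7 and 66.6 CPM in P14 controls. Its log2 fold change was -0.09 ± 0.28 in Control (edgeR, adjusted p = 0.812). The HIE animals had 38.3, 28.2, 49.0 and 37.0 CPM early and 62.5, 50.03, 63.9 and 67.3 CPM at P14, with a log2 fold change of 0.68 ± 0.29 (adjusted p = 0.0735).

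Cspg4 codes for NG2, the proteoglycan by which precursors are commonly stained. It was at 90.1, 87.1, 39.1 and 32.4 CPM in the early controls and at 40.9 to 50.8 CPM in the P14 controls (log2 fold change -0.43 ± 0.24, edgeR adjusted p = 0.145). In HIE animals it was at 32.2 to 40.4 CPM early and at 46.0 to 60.8 CPM at P14, with a log2 fold change of 0.56 ± 0.24 (adjusted p = 0.0752). Olig1, a transcription factor of precursors and oligodendrocytes alike, was at a log2 fold change of 0.75 ± 0.43 in Control (edgeR, adjusted p = 0.162) and 0.75 ± 0.44 in HIE (adjusted p = 0.195).

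The Control result for Cldn11, Olig1 and Cspg4 changed with the P6H63 animals. With these controls left out, 8 of 9 members rose, where 35.6% of all genes were called. Cldn11 then rose by a log2 fold change of 2.10 ± 0.55 (edgeR, adjusted p = 0.00716), Olig1 by 1.57 ± 0.52 (adjusted p = 0.0257) and Cspg4 by 0.38 ± 0.14 (adjusted p = 0.0419), and Pdgfra was at 0.62 ± 0.27 (adjusted p = 0.0869). With the P6H55 controls left out instead, the same 5 myelin genes rose and Cspg4 fell by 0.93 on the log2 scale (adjusted p = 4.99e-06), where 59.4% of all genes were called. In HIE animals, summing the counts of littermates, which leaves 2 samples a group, kept Mog, Mobp and Mag as called and left 3 of 9 members, where 11.8% of all genes were called.

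**Figure D2:**
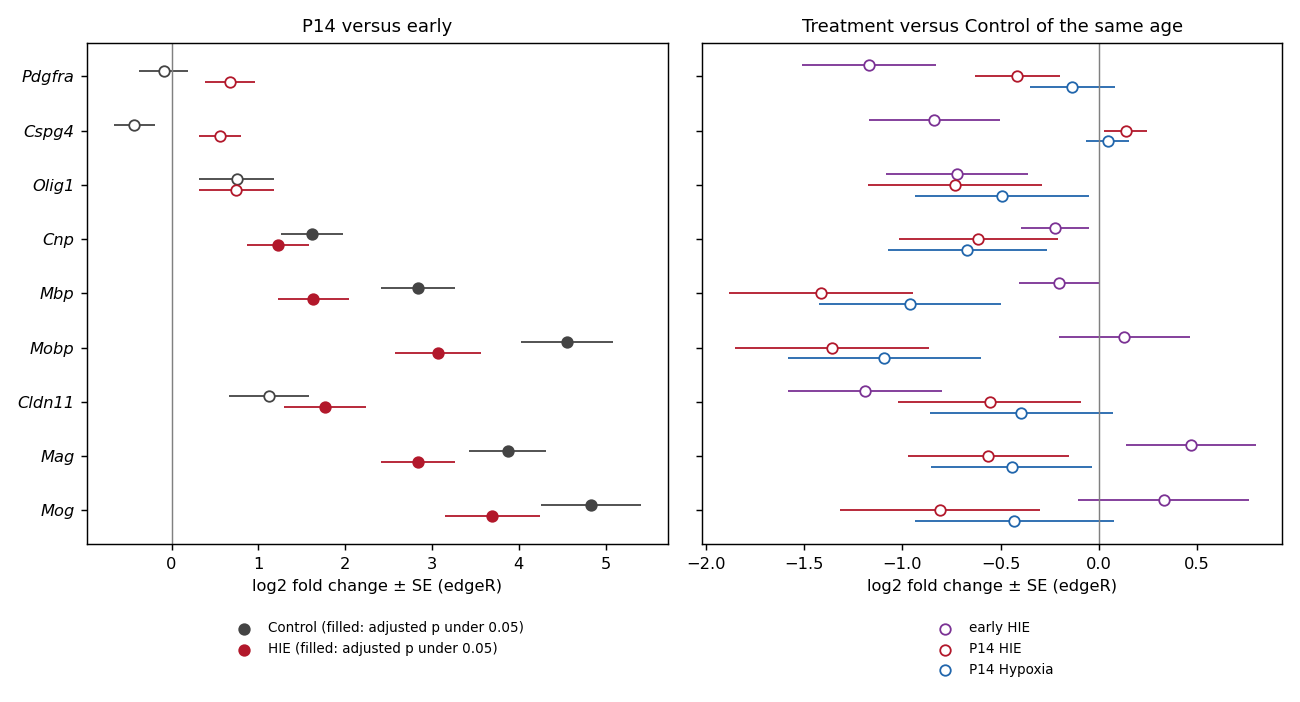
Log2 fold change with its SE from edgeR for each gene, P14 against the early age (left) and treatment against Control of the same age (right). Filled points have an adjusted p under 0.05. All filled points are myelin genes in the comparison of ages, from 1.23 for Cnp in HIE to 4.83 for Mog in Control, and none is filled among the treatment comparisons.

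The order of the members changed with age. On the scale of CPM per kilobase of annotated exon, Cnp (26.0 ± 6.55, SD, n = 4) and Cldn11 (25.1 ± 15.0) led in the early controls, followed by Mbp (12.8 ± 2.23), Olig1 (10.8 ± 5.87), Pdgfra (6.93 ± 3.33) and Cspg4 (5.20 ± 2.56). Mag (3.15 ± 1.16), Mobp (1.18 ± 0.28) and Mog (0.77 ± 0.27) closed the order. The animals of each gene overlapped those of its neighbour in this order, apart from Mag and Mobp. For Cldn11 the P6H63 controls were at 31.5 and 43.4 and the P6H55 controls at 12.7 and 12.9.

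In the P14 controls the precursor genes had come last. Mbp (91.7 ± 58.9 CPM per kilobase) and Cnp (79.4 ± 37.9) led, with Cldn11 (54.8 ± 23.9), Mag (46.0 ± 22.4), Mobp (27.7 ± 18.4) and Mog (21.8 ± 11.4) next and Olig1 at 18.1 ± 9.35. Pdgfra (6.51 ± 0.77) and Cspg4 (3.87 ± 0.35) lay below, apart from their neighbours, while all other neighbours overlapped. These genes were also the most even among P14 controls, with a coefficient of variation of 9.08% for Cspg4 and 11.8% for Pdgfra against 43.6% to 66.2% for the myelin genes and 51.7% for Olig1.

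Other genes of the lineage were counted by stage. Of 20 other myelin genes, 15 rose and none fell in Control between the ages (median log2 fold change 2.31, against -0.04 over all genes tested), and 17 rose and none fell in HIE (median 2.18, against 0.04). Of all genes tested, 48% in Control and 35.7% in HIE were called in either direction. Among those with the smallest adjusted p in Control were Opalin, a membrane protein of central myelin (log2 fold change 5.74 ± 0.70), and Ermn, a cytoskeletal protein of mature oligodendrocytes (4.93 ± 0.62). In HIE the 3 genes with the smallest adjusted p were Mal, a proteolipid of myelin sorting (3.10 ± 0.35), Opalin (4.80 ± 0.68) and Ermn (3.94 ± 0.60). The adjusted p of these genes in edgeR was at most 6.11e-05. At the early age Opalin had few counts, at 0.0455 to 0.32 CPM in Control and 0.0139 to 0.264 CPM in HIE.

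Genes of committed precursors, the short stage before myelination, also changed between the ages. Of 8, 5 rose and 2 fell in each arm (median log2 fold change 1.295 in Control and 1.09 in HIE), where 48% and 35.7% of all genes were called. Gpr17, the receptor that defines this stage, rose by 2.67 ± 0.40 in Control and 2.05 ± 0.39 in HIE. Neu4, a sialidase, rose by 3.05 ± 0.39 and 2.56 ± 0.38, and Itpr2, a calcium channel of internal stores, by 1.55 ± 0.19 and 1.11 ± 0.19. In the P14 controls Itpr2 was at 314 to 352 CPM and Gpr17 at 108 to 218 CPM. Which cells carried these transcripts was not tested. The genes that fell were Tcf7l2, a transcription factor of Wnt signaling, in both arms (-0.58 ± 0.11 and -0.85 ± 0.11), Bmp4 in Control (-1.18 ± 0.33) and Fyn, a kinase of early differentiation, in HIE (-0.42 ± 0.14).

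Of 12 other precursor genes, 4 rose and 2 fell in Control and 5 rose and 1 fell in HIE, which is 6 of 12 in each arm, where 48% and 35.7% of all genes were called. In Control, Pcdh15 rose by 0.94 ± 0.28, Sox10 by 1.42 ± 0.43 and Tnr by 1.00 ± 0.32 on the log2 scale, and Ptprz1 (-0.89 ± 0.28) and C1ql1 (-1.04 ± 0.41) fell. In HIE, Tnr (1.35 ± 0.33), Epn2 (0.53 ± 0.14) and Lhfpl3 (1.23 ± 0.34) rose and Ptprz1 (-0.77 ± 0.28) fell. Several of these genes are read in other glia too, so that the list is not specific to precursors. Of the genes of peripheral myelin, made by Schwann cells, Prx was lower at P14, at a log2 fold change of -2.04 ± 0.26 in Control and -0.96 ± 0.26 in HIE, and Pmp22 was higher in Control (0.57 ± 0.20), all with an edgeR adjusted p of at most 0.0302.

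At the early age no member passed the test between HIE and Control, in a comparison that addressed the response soon after the hypoxia and called 0.0666% of all genes. The HIE animals were labelled P7 with prefix N, and the controls P8 to P11 with prefix P6H. Treatment, labelled day and prefix therefore cannot be told apart in it. The HIE animals were also all males, while the controls were of both sexes. All 3 precursor genes and Cldn11 had lower means in HIE, at 0.447-fold for Pdgfra, 0.563-fold for Cspg4, 0.609-fold for Olig1 and 0.440-fold for Cldn11. The log2 fold change was -1.17 ± 0.34 for Pdgfra (edgeR, adjusted p = 0.15), -0.84 ± 0.33 for Cspg4 (adjusted p = 0.165), -0.72 ± 0.36 for Olig1 (adjusted p = 0.221) and -1.19 ± 0.39 for Cldn11 (adjusted p = 0.15). The other myelin genes lay between -0.22 ± 0.17 (Cnp) and 0.47 ± 0.33 (Mag), with adjusted p from 0.35 to 0.809. All 9 astrocyte (median log2 fold change -1.14), 9 neuron (-0.63), 8 endothelial (-0.95) and 9 mural cell markers (-1.01) were lower in HIE. So were all 7 fibroblast (-1.30) and 6 choroid plexus markers (-1.54). All 11 microglia (1.11) and 7 border macrophage markers (0.82) were higher. None of these markers was called, and their part in the member values was not tested.

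Cldn11 was the single member whose groups were apart, with every HIE animal (25.6 to 30.5 CPM) below every Control animal (31.3 to 107 CPM). Such an order held for 7.45% of all genes. Olig1 was at 26.8, 39.7, 12.9 and 13.6 CPM in the controls and at 16.5, 13.3, 15.9 and 11.0 CPM in HIE. For Cspg4 and Olig1 both P6H55 controls lay within the range of the HIE animals, for Pdgfra 1 of them did and the other (59.9 CPM) lay above it, and the P6H63 controls were above all HIE animals in each. The 4 lineage lists beside the members gave no called gene of 12, 8, 19 and 4 tested. Among their most abundant genes Ptprz1, a phosphatase of precursors and astrocytes, was at -0.67 ± 0.27 (edgeR, adjusted p = 0.165) and Itpr2 at 0.54 ± 0.25 (adjusted p = 0.198).

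Between these control litters 6 of 9 members differed, in a contrast of 2 animals against 2 where 45.8% of all genes were called. The P6H63 animals were labelled P8 and P9 and those of P6H55 P10 and P11, so that litter and labelled day cannot be told apart. P6H63 was higher than P6H55 in Cldn11 (log2 fold change 1.52 ± 0.15, edgeR adjusted p = 0.000177), Olig1 (1.297 ± 0.23, adjusted p = 0.00289), Cspg4 (1.28 ± 0.11, adjusted p = 0.000126), Pdgfra (1.14 ± 0.23, adjusted p = 0.0047) and Cnp (0.50 ± 0.13, adjusted p = 0.0141). It was lower in Mag (-0.93 ± 0.18, adjusted p = 0.00439). Mog (-0.75 ± 0.35, adjusted p = 0.111), Mobp (-0.13 ± 0.25) and Mbp (0.04 ± 0.17) did not pass the test.

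Markers of other cells moved with these litters. Summed over their lists, fibroblast markers stood at 3143 to 3549 CPM in P6H63 against 1122 to 1204 CPM in P6H55, mural cell markers at 1642 to 1856 against 757 to 804 CPM, endothelial markers at 1777 to 2202 against 922 to 925 CPM and astrocyte markers at 3621 to 4494 against 1214 to 1719 CPM. Neuron markers were at 337 to 434 against 184 to 251 CPM, and those of choroid plexus, at 3282 to 8666 against 3693 to 4150 CPM, overlapped. Microglia markers went the other way, as given above, and so did markers of border macrophages (391 to 506 against 2479 to 3422 CPM). Early HIE animals lay below both litters in fibroblast (738 to 1064 CPM), mural cell (574 to 750) and endothelial sums (652 to 871). The same held for choroid plexus markers (1114 to 2089 CPM). HIE astrocyte (969 to 1287 CPM), neuron (172 to 229 CPM) and border macrophage sums (2244 to 3902 CPM) overlapped P6H55. The HIE microglia sums (17532 to 20003 CPM) were above both litters. Outside the oligodendrocyte lineage, Pdgfra is known from fibroblasts, Cspg4 from pericytes and Cldn11 from cells of the meninges, and the part of these cells in the member values was not tested.

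Taking either litter as the sole Control changed the early comparison. Against P6H63 alone, 5 members were lower and 1, Mag, was higher in HIE, where 58.5% of all genes were called. Against P6H55 alone no member was called, where 0.112% of all genes were, and the log2 fold changes were -0.47 ± 0.21 for Pdgfra (edgeR, adjusted p = 0.311), -0.22 ± 0.09 for Cldn11 (adjusted p = 0.277), -0.04 ± 0.12 for Cspg4 and 0.09 ± 0.17 for Olig1. With all 4 controls, DESeq2 called Pdgfra and Cldn11 lower in HIE, where it called 13.4% of all genes, and edgeR's likelihood ratio test called Pdgfra, where it called 6.44%.

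The early HIE litters differed in the late myelin genes, though not beyond the threshold over all genes. N5 had 2.699 and 3.60 CPM of Mog against 1.41 and 1.17 CPM in N8, and 16.1 and 16.2 CPM of Mobp against 7.48 and 7.00 CPM. The log2 difference of N5 from N8 was 1.29 ± 0.35 for Mog, 1.16 ± 0.25 for Mobp, 0.83 ± 0.18 for Mag and 0.65 ± 0.17 for Mbp, with an edgeR adjusted p of 0.425 to 0.606, where 0.0289% of all genes were called. The precursor genes were at -0.37 ± 0.23 to 0.15 ± 0.23.

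**Figure D3:**
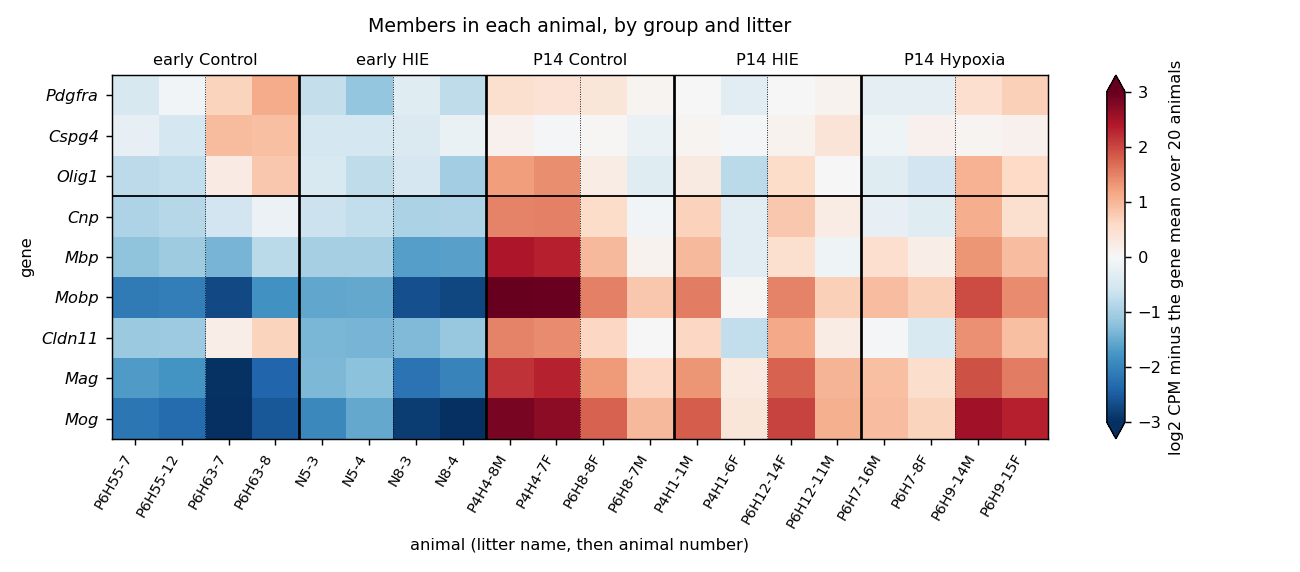
Log2 CPM of each gene in each animal, centred on the mean of that gene over the 20 animals, with colours held at ±3. Solid lines divide the groups and dotted lines the litters. The myelin genes are blue in the early animals, apart from Cldn11 in the P6H63 controls. They are mostly red at P14, most strongly so in the P4H4 controls (Mobp at 411 and 368 CPM). The P6H63 controls stand out in Pdgfra, Cspg4, Olig1 and Cldn11.

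At P14 all 6 myelin genes had lower means in HIE than in Control, and none passed the test, in a comparison that asked what persisted a week after the hypoxia. The means were 0.379-fold for Mbp, 0.394-fold for Mobp, 0.578-fold for Mog, 0.661-fold for Cnp, 0.684-fold for Mag and 0.687-fold for Cldn11. For Mbp the log2 fold change was -1.42 ± 0.47 (edgeR, adjusted p = 0.38) and for Mobp -1.36 ± 0.49 (adjusted p = 0.418), and the other 4 had adjusted p of 0.675 to 0.77. The call rate over all genes was 0%, with 2016 of 21679 at an unadjusted p under 0.05. The median of the 9 members was -0.61 on the log2 scale against 0.01 over all genes.

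The P14 groups overlapped in every member. In Mbp the P4H4 controls (1426 and 1338 CPM) lay above all HIE animals (216 to 524.36 CPM), whereas of the P6H8 controls 1 was level with the highest HIE animal (524.43 CPM) and the other lay among them (286 CPM). Markers of other cells moved with the groups. The 9 neuron markers were all lower in HIE and summed to 214 to 293 CPM against 323 to 670 CPM in Control, and the 9 mural cell markers were all higher and summed to 966 to 1450 CPM against 585 to 750 CPM. All 9 astrocyte markers were lower too (median log2 fold change -0.60). All 11 microglia (median 0.21), 8 endothelial (0.47), 7 fibroblast (0.39) and 6 choroid plexus markers (0.40) were higher, and of 7 border macrophage markers 2 were. None of these markers was called, and their part in the member values was not tested. The precursor genes were at -0.41 ± 0.22 for Pdgfra (edgeR, adjusted p = 0.598), 0.14 ± 0.11 for Cspg4 (adjusted p = 0.755) and -0.73 ± 0.44 for Olig1 (adjusted p = 0.657). None of the 20 other myelin genes was called, and the same held for the other precursor, committed precursor and peripheral lists.

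Hypoxia against Control at P14 gave no called member either, with a call rate of 0% over all genes and 2144 genes at an unadjusted p under 0.05. The largest log2 fold changes were -1.09 ± 0.49 for Mobp (edgeR, adjusted p = 0.488) and -0.96 ± 0.46 for Mbp (adjusted p = 0.522). The other 4 myelin genes were at -0.67 to -0.39 and the precursor genes at -0.49 to 0.04. Mobp had 89.4, 182, 125 and 77.6 CPM in the Hypoxia animals, within the range of the controls except for the lowest of them. Both Hypoxia litters carry the P6H prefix, and against the P6H8 controls alone the sign turned in all 6 myelin genes and Olig1, with Mobp at 0.11 ± 0.38 and Mbp at 0.18 ± 0.36 (edgeR, adjusted p = 0.945 and 0.903). Neuron markers summed to 287 to 418 CPM and mural cell markers to 863 to 1522 CPM in Hypoxia, and their part was not tested. This comparison and that of HIE share the 4 controls, so that the direction common to both is not counted as a second result.

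Between HIE and Hypoxia at P14, which asks what the maternal treatment adds as far as the group names go, no member was called and the call rate over all genes was 0%, with 1253 genes at an unadjusted p under 0.05. The log2 fold changes were -0.45 ± 0.46 for Mbp to 0.09 ± 0.11 for Cspg4, with edgeR adjusted p of 0.935 to 1.00.

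At P14 the members varied between litters of one treatment, though none passed the test over all genes. In Control, P4H4 was above P6H8 in all 9 members, at 411 and 368 against 135 and 81.8 CPM for Mobp and 53.6 and 58.8 against 26.3 and 17.6 CPM for Olig1. The log2 difference was 1.86 ± 0.46 for Mobp, 1.79 ± 0.42 for Mbp, 1.37 ± 0.35 for Olig1 and 1.12 to 1.36 for the other 4 myelin genes. Pdgfra (0.25 ± 0.14) and Cspg4 (0.13 ± 0.14) differed least. No member was called (edgeR, adjusted p of 0.277 to 0.728), where 0.0131% of all genes were. In the same test 7 of 9 members and 2773 of all 22887 genes tested were at an unadjusted p under 0.05.

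In Hypoxia, P6H9 was above P6H7 by 1.63 ± 0.46 for Mog, 1.41 ± 0.44 for Cldn11, 1.31 ± 0.35 for Olig1 and 0.91 ± 0.14 for Pdgfra on the log2 scale. The smallest adjusted p was that of Pdgfra (edgeR, 0.0538), whose values were 89.6 and 103 CPM in P6H9 and 51.6 and 51.4 CPM in P6H7, and no member was called, where 0.109% of all genes were. In HIE, P4H1 and P6H12 differed by -0.66 ± 0.43 for Cldn11 to 0.27 ± 0.41 for Mbp, with no member called, where 0.166% of all genes were. There the spread was within litters: P4H1 held 136 and 47.8 CPM of Mobp, a 2.84-fold gap, against a 1.12-fold gap in P4H4.

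**Figure D4:**
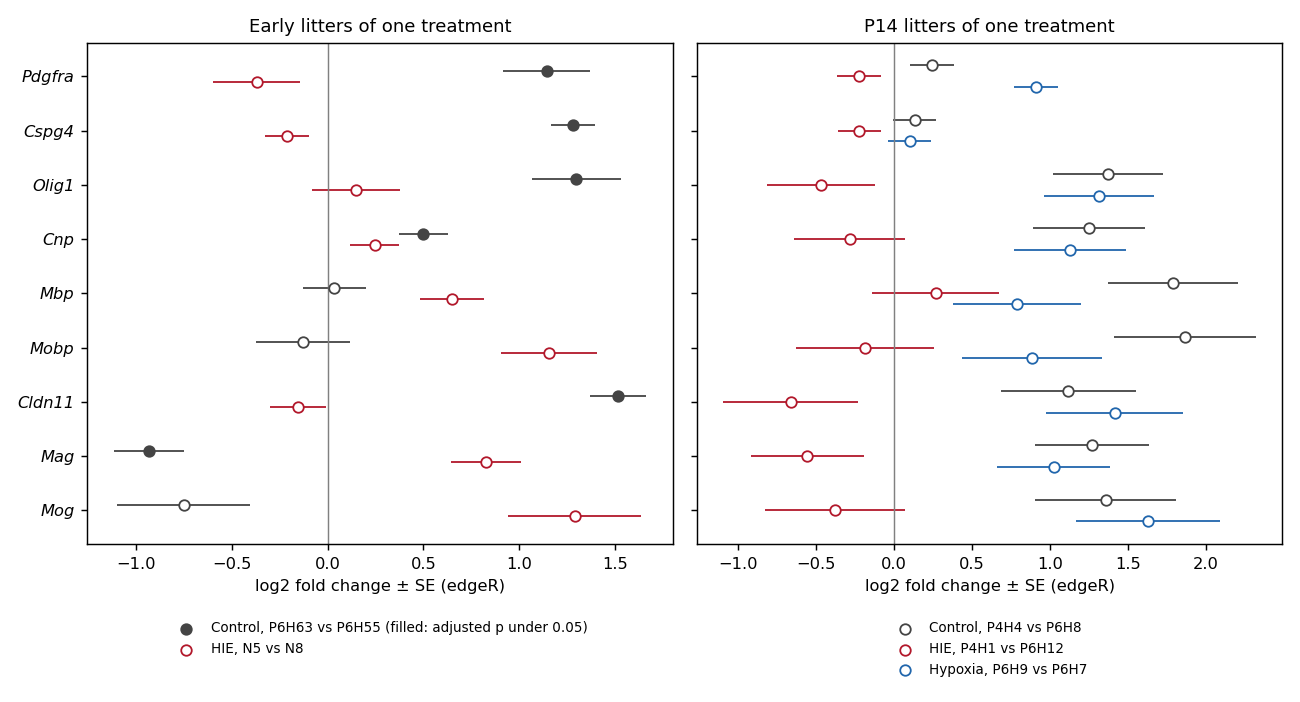
Log2 difference with its SE between the litters of one treatment, at the early age (left) and at P14 (right), from edgeR fits with litters as groups (2 animals each). Filled points, with an adjusted p under 0.05, occur for 6 genes in the early Control litters only, and Cspg4 lies between -0.22 and 0.13 in all P14 contrasts.

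Split by the prefix of the animal names, the HIE difference at P14 had opposite signs in most members. Among P4H animals the log2 fold change of HIE over Control was -2.10 ± 0.49 for Mobp, -1.92 ± 0.43 for Mbp and -1.53 ± 0.47 for Mog. No member was called there (edgeR, adjusted p of 0.206 to 0.901, the latter for Cspg4). Among P6H animals 6 of 9 members were higher in HIE, among them Mag at 0.45 and Cldn11 at 0.40. The difference between these effects was itself tested and was 2.05 ± 0.63 for Mobp, 1.84 ± 0.49 for Olig1 and 1.82 ± 0.51 for Mag, with no member called (adjusted p of 0.489 to 0.801), where 0.0481% of all genes were called. Each prefix held 1 HIE and 1 Control litter, so that prefix, litter and treatment cannot be told apart within it. The astrocyte markers were also highest in P4H4, at 1838 to 2435 CPM against 940 to 1047 CPM in P6H8 and 816 to 1663 CPM in HIE, and their part in the member values was not tested.

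The HIE effect at P14 was set against that at the early age in a single fit of 20 animals, and no member passed the test, with a call rate of 0% over all genes and 3532 of 24505 at an unadjusted p under 0.05. The difference of the log2 fold changes was 0.99 ± 0.34 for Cspg4 (edgeR, adjusted p = 0.181), -1.48 ± 0.65 for Mobp (adjusted p = 0.31), -1.21 ± 0.57 for Mbp (adjusted p = 0.342) and 0.77 ± 0.40 for Pdgfra (adjusted p = 0.392). With the P6H55 controls left out, Cspg4 (1.49 ± 0.16, adjusted p = 2e-06) and Pdgfra (1.23 ± 0.33, adjusted p = 0.00851) passed the test, where 30.2% of all genes were called. With the P6H63 controls left out none passed, and they were at 0.16 ± 0.17 and 0.04 ± 0.34. In the early effect that enters this difference, treatment cannot be told apart from labelled day and name prefix.

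Among the genes most like the 6 myelin genes within groups were others of the lineage. Over the 20 animals, deviations of log2 CPM from the group means had a Pearson r with the mean deviation of the myelin members of 0.954 for Ugt8a, an enzyme of myelin lipid synthesis, 0.949 for Ermn and 0.931 for Gal3st1, which makes sulfatide. For the 3 precursor genes the closest were Sema3d (0.9695), Tiam2 (0.965), Slc22a23 (0.962), Wscd1 (0.962) and Phldb1 (0.961). The animals share litters, depth and composition, and these values are descriptions. Without the P6H63 controls Ermn and Gal3st1 stayed among the 5 genes closest to the myelin members, joined by Pllp and Shisa4, and 1 of the 5 near the precursor genes did so (Tiam2, joined by Chst3, Sox8, Abtb2 and Sh3gl3).

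In the 2 P14 HIE animals with a pair of libraries, the members differed between the libraries by at most 0.163 on the log2 scale, whereas littermates in those litters differed by up to 2.84-fold.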

How the data were processed

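CD11b+ cells of 20 CF-1 pups were profiled by total RNA sequencing in 22 libraries. Per their methods, the authors aligned reads with STAR (GRCm39), quantified genes by RSEM and deposited expected counts per gene for each library in a table per batch, without normalization. Expected counts of libraries from 1 animal were summed and rounded. Of 56691 Ensembl identifiers, 56017 matched GENCODE M39, which gave symbols, coordinates and exon lengths. The 9 genes and the other lists were chosen with earlier results of these data known.

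Genes were filtered (filterByExpr), scaled by TMM and tested by edgeR's quasi-likelihood test (edgeR 4.0.16, R 4.3.3), with Benjamini-Hochberg adjustment over all genes tested and a threshold of 0.05. The early comparison used 8 animals, the P14 comparisons 12 and the comparisons of ages 20. CPM were TMM-scaled over 20 animals. DESeq2 1.42.0, edgeR's likelihood ratio test, other scalings, no filter, leaving out animals or litters, summed littermates, a sex term and a prefix term were tried as alternatives. Contrasts between litters and counts of groups without overlap were added after seeing the data. The tests were checked on simulated counts. There animals were drawn independently within their groups, so that the check did not cover spread shared by littermates. Animals share litters, so that p-values measure the spread between animals of few litters. Members were named in every comparison, and of each other lineage list up to 3 called genes per direction with the smallest adjusted p, or otherwise those with the highest mean CPM. Promoter sequence came from GRCm39 and the canonical GENCODE start. Intervals from counts would cover counting error only. Columns of per-sample values that match no sample numbered 0. Some genes that these rules name are not reported here.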

Additional observations from a re-analysis of the deposited data

How the results depend on the processing

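No paired analysis was possible because no number in the labels pairs animals across groups and each litter held 1 treatment. Library-size scaling in place of TMM moved the median log2 fold change of all genes from -0.08 to -0.28 in the early comparison, from -0.04 to -0.20 between the ages in Control and from 0.04 to 0.19 in the difference of the HIE effects. It changed no call on a member. Outside the comparisons of ages the main count of members called was 0, and a count that stayed 0 is among the same. The counts of members called were the same, within 1.5 times, under 63 of 69 alternatives and in 61 of 64 fits without 1 animal. In the early comparison they went from 0 to 2 with DESeq2, 1 with the likelihood ratio test and 6 against the P6H63 controls alone, and lay between 0 and 2 without 1 animal, 2 being reached without the first listed P6H55 control. Between the ages, the Control count went from 5 to 8 without the P6H63 controls, and the HIE count from 6 to 3 with littermates summed. For the difference of the HIE effects the count went from 0 to 2 without the P6H55 controls and lay between 0 and 1 without 1 animal, where leaving out either P6H55 control passed Cspg4. Summing littermates also left fewer samples, and the cause of these changes was not tested.

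Signs of the log2 fold changes turned in 26 other values, none of them called but that of Cspg4. In the early comparison, Olig1 was at 0.0867 and Cnp at 0.0663 against P6H55 alone, Mbp at 0.00471 with a sex term and Mobp at -0.0659 with library-size scaling. For P14 HIE against Control, Cspg4 was at -0.0444 in P4H animals, and in P6H animals Olig1 was at 0.32, Cnp at 0.27, Cldn11 at 0.40, Mag at 0.45 and Mog at 0.19. For Hypoxia against Control in P6H animals, Olig1 was at 0.34, Cnp at 0.0759, Mbp at 0.18, Mobp at 0.11, Cldn11 at 0.26, Mag at 0.32 and Mog at 0.39. For HIE against Hypoxia, Cnp was at -0.0908 with littermates summed, and in P6H animals Cldn11 and Mag were both at 0.13. Between the ages in Control without P6H63, Pdgfra was at 0.62 and Cspg4 at 0.38. In the difference of the HIE effects, Olig1, at -0.00136, was at 0.25 with library-size scaling, 0.0293 without a filter and 0.51 without P6H55, and Cldn11 was at -0.35 without P6H63.

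Without 1 animal, ranges that crossed 0 were -0.0682 to 0.31 for Mobp and -0.00561 to 0.54 for Mog in the early comparison, -0.32 to 0.0123 for Pdgfra in Hypoxia against Control, and -0.30 to 0.22 for Pdgfra between the ages in Control. For HIE against Hypoxia they were -0.46 to 0.10 for Olig1, -0.13 to 0.41 for Cnp, -0.47 to 0.00919 for Mobp, -0.51 to 0.21 for Cldn11 and -0.40 to 0.15 for Mag. For Olig1 the difference of the HIE effects ranged from -0.37 to 0.26. The members had 78 counts or more in every animal, and each group held 2 litters.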
